A study of Mus musculus with 2 samples.

Results

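The miR-297, miR-466, miR-467 and miR-669 families are mouse miRNAs whose hairpins lie, for the most part, in an intron of Sfmbt2. A hairpin was counted for the families when its GENCODE symbol started with Mir297, Mir466, Mir467 or Mir669, which gave 81 of the 1174 annotated hairpins used. Of these, 6 belonged to the miR-297 family, 28 to miR-466, 17 to miR-467 and 30 to miR-669. A tag, which is a distinct small RNA sequence with its number of reads, was counted when it matched such a hairpin without mismatch on the sense strand. Each tag was counted once for the families together and again for every hairpin it matched.

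The tags came from 2 sRNA libraries of J1 cells, a mouse embryonic stem (ES) cell line grown on gelatin with LIF. The cells received AICAR at 1 mM, or DMSO in the same volume and no AICAR, for 24 h. AICAR is a cell-permeable compound that activates AMP-activated protein kinase. The control sample is titled J1_U and carries the treatment label DMSO. Where a pair of values is given below, the DMSO value stands before the AICAR value. There was 1 library per condition, so no difference below has a replicate check, and no test between the conditions was possible.

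Sfmbt2 encodes a polycomb group protein and is imprinted, with expression from the paternal allele in early embryos and in the placenta. The miRNA cluster in its intron is known from rodents, arose by repeated duplication, and is studied chiefly in the trophoblast. Each hairpin can give a mature miRNA from its 5′ arm (5p) and another from its 3′ arm (3p). The seed, bases 2 to 8 of the mature miRNA, is the stretch that pairs most often with target mRNAs.

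The sequences below are those of the 13 miRNAs of the families that reached 10 RPM, reads scaled to 1000000 clean reads, in at least 1 library. They are shown because the near-identity of the copies decides how far their reads can be told apart. A miRNA here is a hairpin arm, represented by the tag with the most reads on it, and arms with the same such tag are 1 miRNA with a joint name. Letters are as sequenced, with T for U, and capitals mark the seed. The position given for each is that of its first listed hairpin in GRCm38, on the plus strand. The miRNAs with the seed TATACAT or CATAACA were 3p arms of the miR-467, miR-297 and miR-669 hairpins.
miR-467a/miR-467d-3p, chr2:10476391-10476412: aTATACATacacacacctacac
miR-297a/miR-297b/miR-297c-3p, chr2:10515868-10515889: aTATACATacacacatacccat
miR-669a/miR-669o-3p, chr2:10476908-10476930: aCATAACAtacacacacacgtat
The 3p arms of the miR-466 hairpins carried 3 other seeds.
miR-466f-2-3p, chr2:10468730-10468751: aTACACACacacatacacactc
miR-466f-3-3p, chr2:10472008-10472029: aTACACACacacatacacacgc
miR-466b/miR-466c/miR-466/miR-466e/miR-466p-3p, chr2:10507968-10507989: aTACATACacgcacacataaga
miR-466d/miR-466h-3p, chr2:10512039-10512060: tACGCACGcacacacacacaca
The 5p arms of the miR-467 hairpins share the letters AAGTG in the seed.
miR-467a/miR-467b-5p, chr2:10476355-10476376: tAAGTGCCtgcatgtatatgcg
miR-467c-5p, chr2:10473941-10473962: tAAGTGCGtgcatgtatatgtg
miR-467d-5p, chr2:10507639-10507660: aTAAGTGCgcgcatgtatatgc
miR-467e-5p, chr2:10505731-10505752: aTAAGTGTgagcatgtatatgt
The 5p arms of the miR-669 hairpins are rich in T and G.
miR-669c-5p, chr2:10509319-10509342: aTAGTTGTgtgtggatgtgtgtat
miR-669a/miR-669p-5p, chr2:10476872-10476893: aGTTGTGTgtgcatgttcatgt

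Of the 81 hairpins, 71 lay in a single intron of Sfmbt2 (chr2:10461473-10523944, GRCm38), on the strand of the gene, within 51.6 kb. The other 10 were scattered over chromosomes 3, 5, 7, 9, 10, 11 and 13. Many of the intronic hairpins were arranged as a repeated unit. The 11 hairpins with the miR-467a/miR-467b-5p sequence followed each other at a median distance of 2.45 kb, and the 12 with the miR-669a/miR-669o-3p sequence at 2.46 kb. The 13 hairpins with the miR-466b/miR-466c/miR-466/miR-466e/miR-466p-3p sequence also had a median distance of 2.45 kb. Through the middle of the intron a Mir467, a Mir466 and a Mir669 hairpin mostly followed each other in turn, as the map of reads along the intron shows. The order had breaks. Mir467a-6, at 24.4 kb from the first hairpin, was followed by Mir669a-8 with no Mir466 hairpin between. Mir669a-11, at 34.7 kb, directly followed Mir669a-10.

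**Figure D1:**
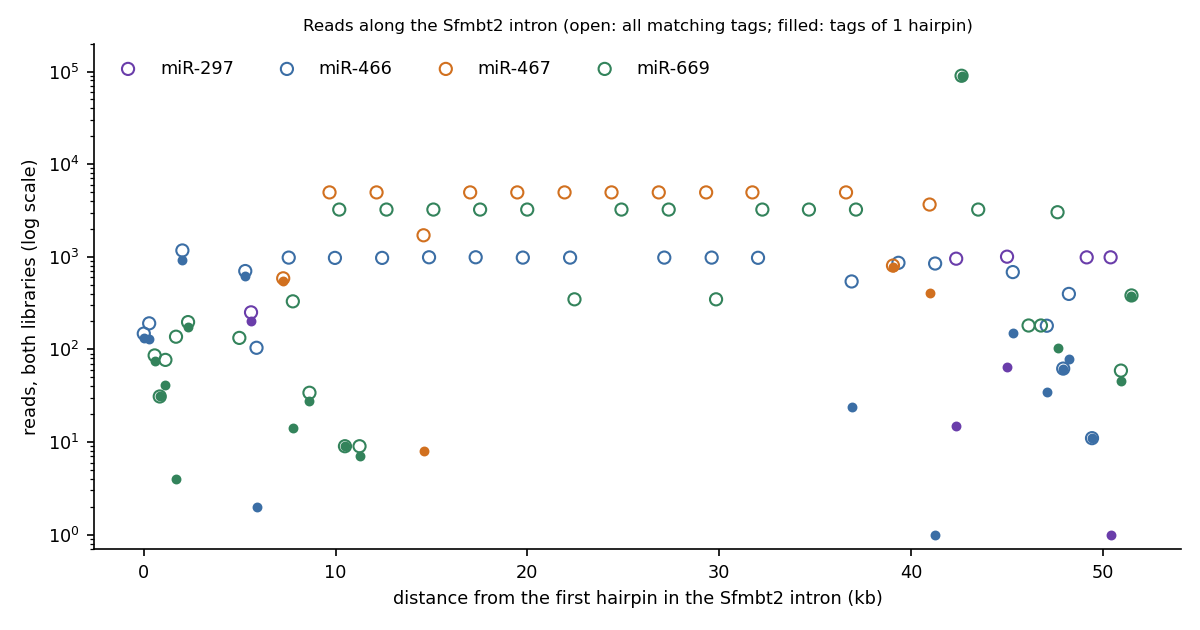
Reads of both libraries together on each hairpin (log scale) against its distance in kb from the first hairpin in the Sfmbt2 intron, with open circles for all matching tags, filled circles for tags that match no other hairpin of the families, and colours for the 4 families. Mir669c, at 42.6 kb, stands far above the other hairpins, and most repeat copies between 10 and 37 kb have open circles only.

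Of clean reads, the DMSO library held 18870345 and the AICAR library 21091226, of which 11.6% and 15.7% matched any of the 1174 hairpins. A single read was worth 0.0530 and 0.0474 RPM. The miR-290 cluster, a defining miRNA cluster of mouse ES cells, gave 28.9% and 36.8% of the hairpin reads. Among miRNAs typical of other cells, the liver miRNA hairpin Mir122 had 55 and 536 reads, 6 of 6 neuronal hairpins had reads (278 and 429 RPM in sum), and so had 5 of 5 of muscle (161 and 205 RPM). Both erythroid hairpins had reads (1.01 and 1.33 RPM), and of the leukocyte hairpins Mir142 had reads (16.1 and 14.8 RPM) and Mir223 had none. The part of other cells in the values below was not tested.

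In all, 536 tags matched a hairpin of the 4 families, with 40371 and 66076 reads (2139 and 3133 RPM). The sum was thus 1.46 times as high in the AICAR library (95% exact interval 1.45 to 1.48). These intervals, here and below, cover counting error only and no spread between replicates. They take reads as independent, which PCR copies are not, so they can be too narrow. As a share of all hairpin reads the families held 1.85% and 1.99%, a ratio of 1.08 (1.06 to 1.09), because the AICAR library had more hairpin reads in general. Relative to hairpin reads, every log2 fold change is lower by 0.44 than the value given in RPM, with TMM scaling it is lower by 0.16, and with median-ratio scaling by 0.09. For comparison, the miR-290 cluster of 7 hairpins stood at 1.73 times its DMSO level in RPM, and the 57 hairpins around Mir134, which belong to another imprinted cluster, at 0.616 times.

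Mir669c alone gave 33612 and 56350 of the reads of the families, or 83.3% and 85.3%. Without its 38 tags, the other 80 hairpins had 6759 and 9726 reads (358 and 461 RPM). Their ratio was 1.29 (1.25 to 1.33) in RPM but 0.947 (0.918 to 0.977) relative to hairpin reads, so its direction turned with the denominator. By family, tags of miR-467 hairpins went from 132.6 to 199 RPM, a ratio of 1.50 (1.43 to 1.58) that stayed above 1 under each scaling. The ratio of the miR-297 family was 1.32 (1.18 to 1.48) in RPM and 0.973 relative to hairpin reads. For the miR-466 family, 1.10 (1.04 to 1.17) in RPM became 0.983 with TMM scaling and 0.810 relative to hairpin reads. The miR-669 family without Mir669c had 1.17 (1.10 to 1.24) in RPM and 0.858 relative to hairpin reads.

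Most copies of the repeated hairpins could not be told apart by their reads. Reads were found for 78 of the 81 hairpins, and 39 of them had a read on a tag that matched no other of the 1174 hairpins. At least 10 such reads were found for 27. When tags that also matched any further annotated transcript, miRNA entries with other symbols included, were left out, these numbers were 32 and 23. Mir669n, Mir467g and Mir467h, all outside Sfmbt2, had no reads, where 3 reads would be 0.159 and 0.142 RPM. Tags of a single hairpin held 88.7% and 89.7% of the family reads, but without Mir669c these shares were 32.6% and 30.3%. At the other end, 101 tags matched 10 or more hairpins and held 9.00% and 8.38% of the family reads, and a tag matched at most 18 hairpins. No tag matched a Mir hairpin outside the 4 families.

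After Mir669c, the hairpins with the most reads were the copies of Mir467a, such as Mir467a-1, with 1799 and 3152 reads on each, none of them on a tag of a single hairpin. Mir467d came next, with 1489 and 2172 reads, of which 185 and 222 were on tags of a single hairpin. The copies of Mir669a other than Mir669a-3, such as Mir669a-1, had 1416 and 1816 reads each, all shared, whereas Mir669a-3 had 95 and 235. Mir669o had 1361 and 1664 reads, 31 and 73 of them on tags of a single hairpin. The hairpins with the most reads on tags of a single hairpin were, in RPM of such reads, Mir669c (1781 and 2672), Mir466f-2 (23.5 and 22.8), Mir467e (16.1 and 22.1), Mir466f-3 (15.3 and 15.9) and Mir467c (11.0 and 16.3). Most of those of Mir466f-2 also matched a transcript of Mylk4, and without tags on any further transcript it kept 19 and 25 reads (1.01 and 1.19 RPM). Under that restriction Mir466f-3 kept 230 and 282 reads, and the values of Mir467e and Mir467c stayed as given. Hairpins with such reads lay mostly near the ends of the intron, while the repeats in its middle gave mainly a joint value.

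Of the 10 hairpins outside Sfmbt2, 7 had reads, together 184 and 140, a ratio of 0.681 (0.542 to 0.853). Most of these reads also matched a hairpin in Sfmbt2, and only 29 and 41 reads did not, with a ratio of 1.26 (0.767 to 2.11). Mir466i, on chromosome 13 and antisense to an intron of Cdk13, had the most, 149 and 83. Mir466q, in an intron of Tnik on chromosome 3, had 23 and 32, of which 15 and 14 matched no other hairpin. Mir466k had 12 and 22 reads, Mir297-1 had 10 and 27, and Mir466f-4 had 7 and 11. Mir466j and Mir467f had 0 and 1 reads each, which is under the limit of 3 reads. On tags of a single hairpin that matched no further transcript, Mir466q kept 0 and 2 reads, Mir466i 3 and 3, and Mir466j 0 and 1. Mir466k, Mir297-1, Mir466f-4 and Mir467f kept none.

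On the hairpin arms, 64 miRNAs of the families had reads, 30 from 5p and 34 from 3p arms. At least 1 RPM in at least 1 library was reached by 36, against 508 among all miRNAs, and these were compared. At least 2-fold more RPM in the AICAR library were found for 6 of the 36 (16.7%), beside 12% of the 508. At most 0.5 times the DMSO value was found for 1 of the 36 (2.78%), beside 10% of the 508. A ratio above 1 was found for 26 of the 36 (72.2%), beside 56.9% of the 508, and relative to hairpin reads for 16 (44.4%), beside 31.1%. The median ratio was 1.31 for the 36 and 1.08 for the other 472. The filter, the same for all 508, lets in miRNAs that reach 1 RPM in the AICAR library only. Among the 6, this held for miR-297a/miR-297-5p (0.530 and 1.28 RPM). Among the 26, it also held for miR-669p-3p, miR-669b-3p and miR-669l-3p. The plot of RPM by library gives each of the 36, and the plot of fold change against level sets them among the others.

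**Figure D2:**
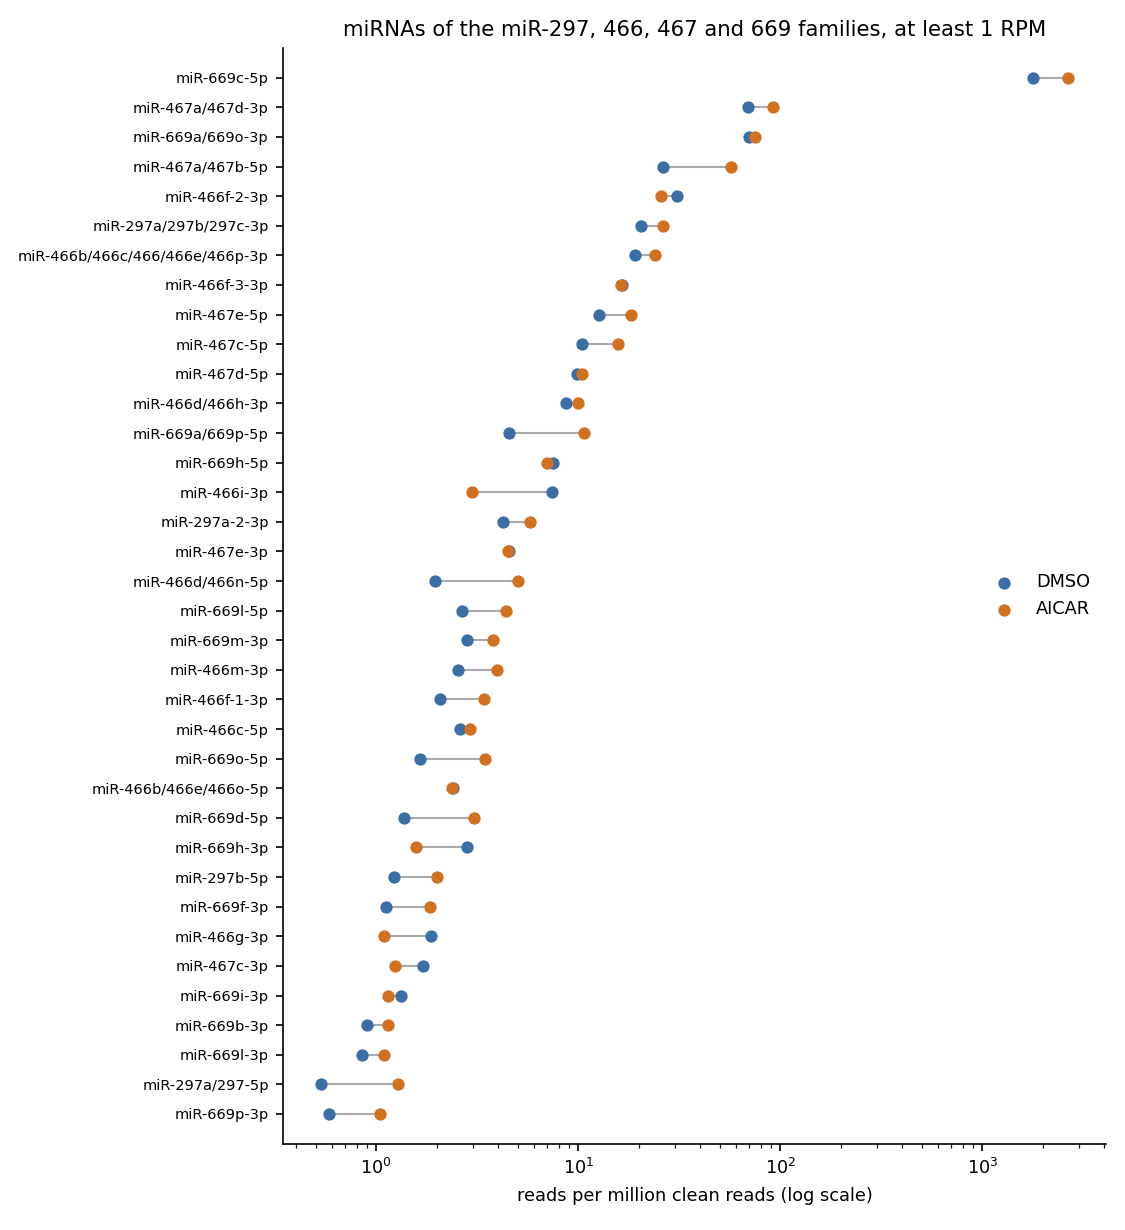
RPM (log scale) of the 36 miRNAs of the 4 families that reached 1 RPM in either library, as 1 point for the DMSO and 1 for the AICAR library, joined by a line and ordered by level, with joint names shortened. miR-669c-5p, at 1781 and 2671 RPM, is separated from the next miRNAs, which stay at or below 92.5 RPM.

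**Figure D3:**
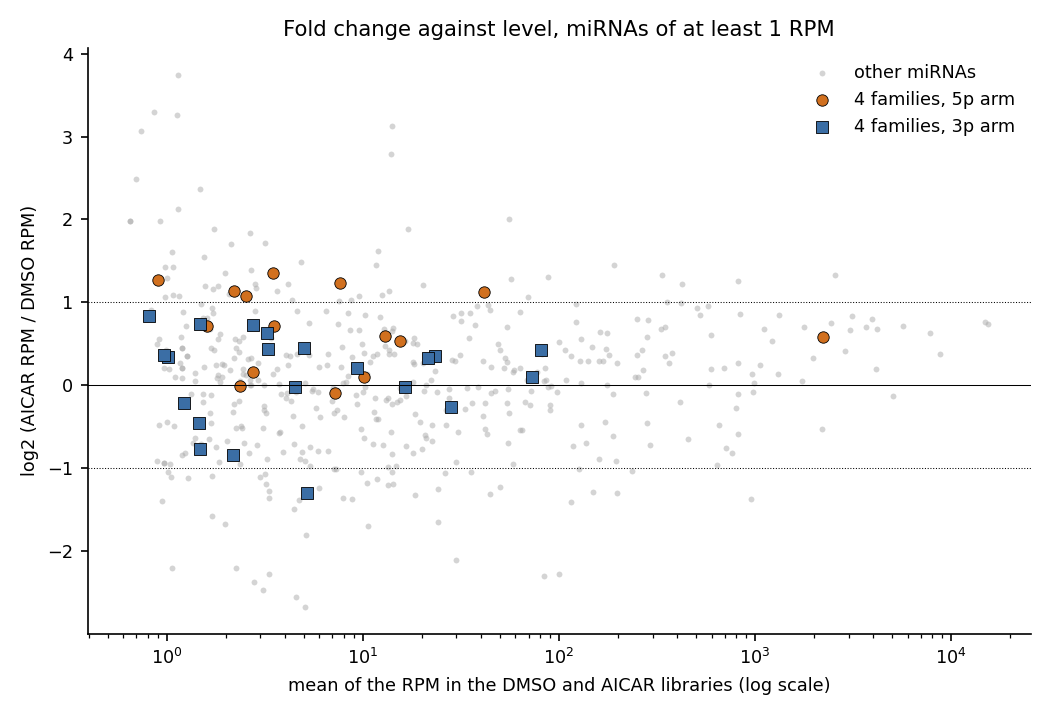
Log2 ratio of AICAR to DMSO RPM against the mean RPM of the libraries (log scale) for all 508 miRNAs of at least 1 RPM, with 5p and 3p arms of the 4 families as coloured circles and squares, other miRNAs in grey and dotted lines at ratios of 2 and 0.5. The 6 points of the families above the upper line are 5p arms, and the point below the lower line is miR-466i-3p.

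miR-669c-5p had 33603 and 56325 reads (1781 and 2671 RPM), a ratio of 1.50 (1.48 to 1.52). By RPM it had rank 16 of 1146 miRNAs in each library. All its reads matched Mir669c alone, and its seed TAGTTGT occurred in no other miRNA of at least 1 RPM and in no other miRNA of the families. The 3p arm of Mir669c had 2 and 5 reads. Nearly all reads of the 5p arm, 99.5% in each library, started at the same base, so that the tags differed mainly at the 3′ end. The main forms are shown because they differ in how their level compared between the libraries.
24 nt form: aTAGTTGTgtgtggatgtgtgtat
23 nt form: aTAGTTGTgtgtggatgtgtgta
22 nt form: aTAGTTGTgtgtggatgtgtgt
21 nt form: aTAGTTGTgtgtggatgtgtg
The 24 nt form went from 24461 to 42245 reads, 72.8% and 75.0% of the arm, with a ratio of 1.55 (1.52 to 1.57) in RPM. The 22 nt form, from 4607 to 7691 reads, had 1.49 (1.44 to 1.55). The 23 nt form, from 3772 to 5377 reads, had a lower ratio of 1.28 (1.22 to 1.33). For the 21 nt form, 234 and 242 reads gave 0.925 (0.770 to 1.11), and for a 26 nt form 96 and 87 reads gave 0.811 (0.600 to 1.10), intervals that include 1. The 22 and 24 nt forms thus lay above the 23 nt form in their ratio, with intervals that did not overlap its own.

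**Figure D4:**
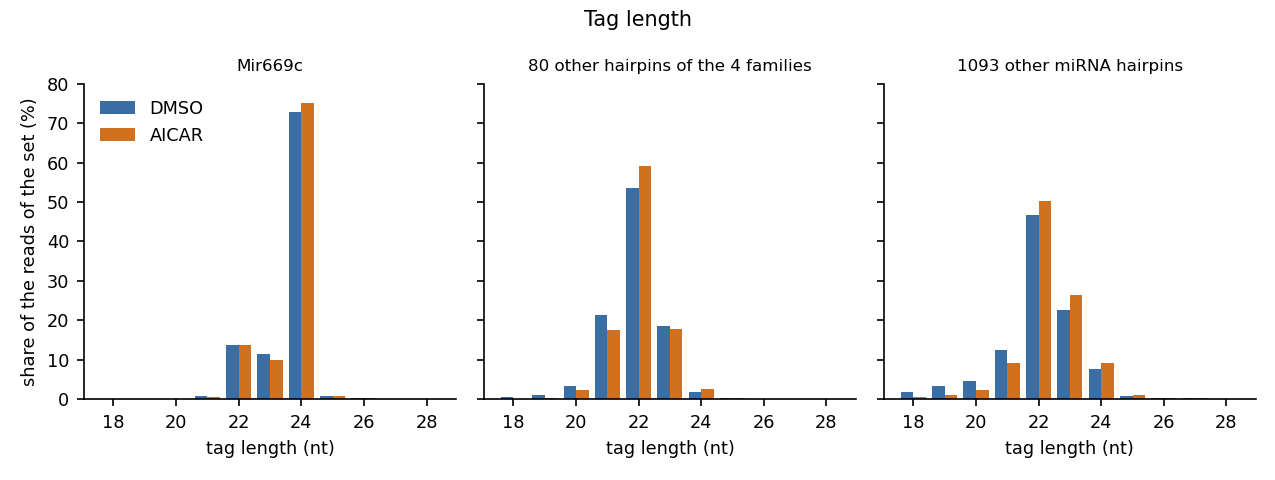
Share of the reads (%) by tag length (nt) for Mir669c, for the other 80 hairpins of the 4 families and for the 1093 other miRNA hairpins, with blue bars for the DMSO and orange bars for the AICAR library. Mir669c peaks at 24 nt (72.9% and 75.1% of its reads), whereas the other hairpins of the families peak at 22 nt (53.4% and 59.0%).

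A length of 24 nt was unusual in this company. Without Mir669c, the reads of the families were most often 22 nt long, 53.4% and 59.0% of them, as were those of the 1093 other hairpins (46.6% and 50.2%), where 24 nt tags held 7.49% and 9.19%. Tags shorter than 21 nt are given as a sign of RNA quality, for the comparison of the libraries within a set. Between sets the shares cannot be compared in this way, since Mir669c peaks at 24 nt and the others at 22 nt. Such tags held 4.60% and 2.64% of the reads of the families without Mir669c, 0.0952% and 0.0461% of those of Mir669c, and 9.65% and 3.88% of those of other hairpins. In each set the DMSO library had the larger share, and its part in the ratios was not tested.

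Among the miR-467 5p arms, miR-467a/miR-467b-5p, from 11 hairpins, had 495 and 1202 reads (26.2 and 57.0 RPM), a ratio of 2.17 (1.96 to 2.42). It was the most abundant of the miRNAs of the families past 2-fold. miR-467c-5p went from 196 to 331 reads, a ratio of 1.51 (1.26 to 1.81). miR-467e-5p went from 238 to 384 reads, with 1.44 (1.22 to 1.70). By contrast, miR-467d-5p had 185 and 221 reads, and its ratio of 1.07 (0.875 to 1.31) was not separated from 1 by counting error, while relative to hairpin reads it was 0.786 (0.644 to 0.961). The 5p arms of the miR-467 hairpins differ by few bases. Counted from 1 at the 5′ end, miR-467a/miR-467b-5p and miR-467c-5p differ by C8G and C21T, and miR-467e-5p and miR-467d-5p by T8C, A10C and T22C.

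Bases 2 to 7 of miR-467a/miR-467b-5p and miR-467c-5p read AAGTGC. The same letters stand at bases 2 to 7 of miR-291a-3p, miR-291b-3p and miR-294-3p of the miR-290 cluster and of miR-302a-3p, miR-302b-3p and miR-302d-3p, miRNAs known for ES cell proliferation and pluripotency. Taking each tag at its own start, tags of the 4 families with these letters went from 688 to 1481 reads (36.5 to 70.2 RPM), a ratio of 1.93 (1.76 to 2.11). Those of the miR-290 cluster went from 92675 to 190382 reads, with 1.84 (1.82 to 1.85), and those of miR-302a to miR-302d from 78 to 63 reads, with 0.723 (0.510 to 1.02). Of all hairpin reads with AAGTGC at this place, the 4 families held 0.736% and 0.771%. The whole seed AAGTGCC of miR-467a/miR-467b-5p was also read on hairpins outside the families, again with each tag at its own start. Those tags had 13167 and 21951 reads (698 and 1041 RPM), beside 490 and 1197 reads in the families. The start base decided which seed a miR-467 5p tag carried. For miR-467c-5p, 34.2% and 41.4% of the reads started 1 nt earlier, which gives the seed TAAGTGC of miR-467d-5p. For miR-467d-5p, 37.3% and 40.7% started 1 nt later, which gives the seed AAGTGCG of miR-467c-5p. For miR-467a/miR-467b-5p, 99.0% and 99.6% of the reads had the same start.

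After miR-669c-5p, the most abundant miRNAs of the families were 3p arms of the repeated Mir467a and Mir669a hairpins. miR-467a/miR-467d-3p, from 11 hairpins, had 1304 and 1950 reads (69.1 and 92.5 RPM), a ratio of 1.34 (1.25 to 1.44) that became 0.984 relative to hairpin reads. miR-669a/miR-669o-3p, from 12 hairpins, had 1327 and 1584 reads (70.3 and 75.1 RPM), with 1.07 (0.992 to 1.15), and 0.785 (0.730 to 0.845) relative to hairpin reads. miR-297a/miR-297b/miR-297c-3p had 386 and 551 reads, with 1.28 (1.12 to 1.46), and 0.939 relative to hairpin reads. These 3p arms were thus close to the level of the hairpin reads as a whole or below it. With the first and the last of these included, 10 miRNAs of the families carried the seed TATACAT, with 1949 and 2868 reads in sum, and no other miRNA of at least 1 RPM carried it.

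Among the 13 miRNAs of at least 10 RPM, the lowest ratios were those of miR-466f-2-3p and miR-466f-3-3p. miR-466f-2-3p had 581 and 541 reads (30.8 and 25.7 RPM), a ratio of 0.833 (0.740 to 0.938). From tags of a single hairpin, with 444 and 481 reads, it was 0.969 (0.850 to 1.11), which includes 1, and from the 19 and 25 reads on no other transcript it was 1.18 (0.623 to 2.26). miR-466f-3-3p, which differs from it by T21G, had 311 and 343 reads, with 0.987 (0.844 to 1.15). miR-466b/miR-466c/miR-466/miR-466e/miR-466p-3p, from 13 hairpins, had 361 and 507 reads, with 1.26 (1.10 to 1.44), 0.924 relative to hairpin reads, and 2.17 (0.856 to 6.20) from its 7 and 17 reads on tags of a single hairpin. miR-466d/miR-466h-3p had 164 and 211 reads, with 1.15 (0.934 to 1.42), and 1.79 (1.01 to 3.29) from the 19 and 38 reads on tags of a single hairpin. The single miRNA of the families at or below 0.5 times its DMSO value was miR-466i-3p. It had 139 and 63 reads (7.37 and 2.99 RPM), a ratio of 0.406 (0.296 to 0.550).

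The reads of miR-466i-3p were mostly on tags shared with other hairpins. The tag with the most reads and the tag found on Mir466i alone are shown for that reason. The first lies at chr13:17747552-17747572 (GRCm38, plus strand).
shared with Mir466f-2, 21 nt: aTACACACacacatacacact
Mir466i alone, 22 nt: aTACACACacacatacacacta
The shared tag had 109 and 52 reads and also matched a transcript of Mylk4. Which of these sites gave its reads cannot be told. The same reads were counted for miR-466f-2-3p as well, so the low ratios of these miRNAs are not separate results. The 22 nt tag had 3 and 3 reads, a ratio of 0.895 with an interval from 0.120 to 6.68. It is the RefSeq mature miR-466i-3p (GRCm38.p6), written there as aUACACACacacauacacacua. RefSeq gave a mature sequence for 8 of the hairpins, all outside Sfmbt2, and apart from miR-466i-3p only that of Mir466j was read, with 0 and 1 reads.

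The other family miRNAs past 2-fold were 5p arms, shown with capitals at the seed because they share a stretch rich in T and G. The first 3 lie on chromosome 2 (plus strand), and the last is given at Mir297-1 on the minus strand.
miR-466d/miR-466n-5p, chr2:10511978-10511999: gTGTGTGCgtacatgtacatgt
miR-669o-5p, chr2:10514318-10514340: tAGTTGTGtgtgcatgtttatgt
miR-669d-5p, chr2:10468384-10468405: aCTTGTGTgtgcatgtatatgt
miR-297a/miR-297-5p, chr7:10958477-10958498: aTGTATGTgtgcatgtgcatgt
miR-669a/miR-669p-5p, shown above, had 86 and 225 reads (4.56 and 10.7 RPM), a ratio of 2.34 (1.82 to 3.04). miR-466d/miR-466n-5p had 37 and 106 reads, with 2.56 (1.75 to 3.83). These were the highest ratios among miRNAs of the families with over 100 reads in the AICAR library. miR-669o-5p had 31 and 73 reads, with 2.11 (1.37 to 3.32), miR-669d-5p had 26 and 64, with 2.20 (1.38 to 3.62), and miR-297a/miR-297-5p had 10 and 27, with 2.42 (1.13 to 5.59). For all 6 miRNAs past 2-fold, miR-467a/miR-467b-5p among them, the lower end of the interval lies below 2, and relative to hairpin reads 0 of them reached 2-fold.

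Values differed between the arms, with no test of the difference. Of the 15 compared 5p miRNAs of the families, 13 had a ratio above 1 and 6 reached 2-fold, with a median ratio of 1.63 and a range from 0.939 to 2.56. Of the 21 3p miRNAs, 13 had a ratio above 1 and 0 reached 2-fold, with a median of 1.26 and a range from 0.406 to 1.79. Among miRNAs outside the families the medians were 1.11 for 256 5p and 1.02 for 215 3p miRNAs. Relative to hairpin reads the medians of the families were 1.20 for 5p and 0.924 for 3p, so that the direction of the 3p median turned. These sets include miRNAs that reached 1 RPM in the AICAR library only. They are miR-297a/miR-297-5p on the 5p side and miR-669p-3p, miR-669b-3p and miR-669l-3p on the 3p side.

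Among arms that share a hairpin, 15 pairs had each arm at 1 RPM or more in at least 1 library. In 12 of them (80%) the ratio of the 5p arm was above that of the 3p arm. An arm with a joint name was counted over all its hairpins, so the arms of a pair can come from different numbers of hairpins. For example, miR-467d-5p, from 1 hairpin, was set against miR-467a/miR-467d-3p, from 11. The same held for 54.4% of the 160 pairs over all hairpins, and for 75 of the 145 pairs outside the families. The median of the 5p ratio over the 3p ratio was 1.62 in the families and 1.03 outside. The pairs are not independent, since 13 different 5p and 11 different 3p miRNAs make up the 15, and the comparison was chosen after the values were seen. Some pairs passed the filter through the AICAR library only, and all of these are among the 12. They hold miR-297a/miR-297-5p, miR-669l-3p or miR-669p-3p, at 0.530, 0.848 and 0.583 RPM in the DMSO library. In the pair of miR-467a/miR-467b-5p and miR-467a/miR-467d-3p, the 5p arm gave 27.5% and 38.1% of the reads of the pair. In the pair of miR-669a/miR-669p-5p and miR-669a/miR-669o-3p it gave 6.09% and 12.4%. The exceptions were miR-466b/miR-466e/miR-466o-5p, miR-466c-5p and miR-467d-5p, whose ratios lay below those of their 3p arms.

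**Figure D5:**
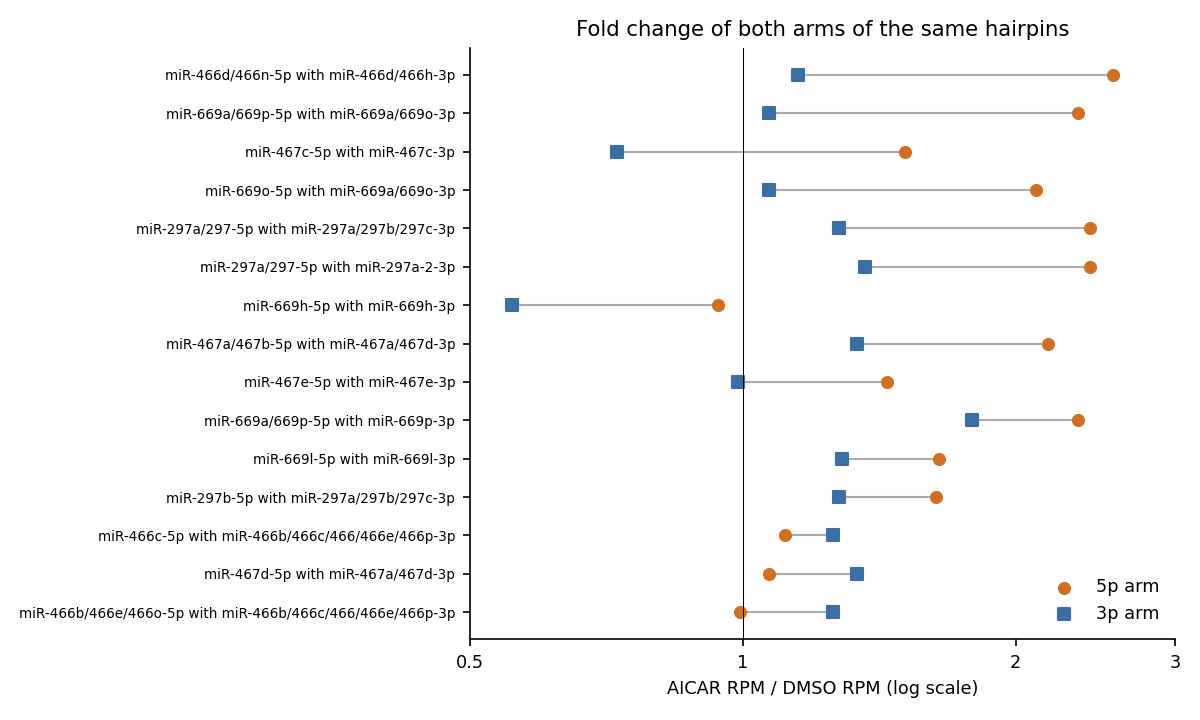
Ratio of AICAR to DMSO RPM (log scale) for the 5p arm (circle) and the 3p arm (square) of the 15 pairs of the families. Each arm had 1 RPM or more in at least 1 library. The arms of a pair are joined by a line, with a vertical line at a ratio of 1 and joint names shortened. In 12 pairs the circle lies to the right of the square, and the 3 exceptions are at the bottom.

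Base composition moved with the arm in these families and cannot be told apart from it. The 5p miRNAs had a median of 70.8% T or G (54.5% to 83.3%) and the 3p miRNAs 22.7% (13.6% to 33.3%), with no overlap. Outside the families, miRNAs with at least 70% T or G had a median ratio of 0.945 (n = 62), and those with under 40% had 1.21 (n = 52). The 8 5p miRNAs of the families with at least 70% T or G had a median of 1.88.

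Tags of these sequences also matched other annotated transcripts. Of the reads of the families, 9.46% and 8.68% fell on tags matching a further annotated miRNA entry with another kind of symbol, of which 48 lie in Sfmbt2. A transcript that is not a miRNA was matched by 1.79% and 1.09% of the reads. Without Mir669c, 56.5% and 58.9% of the reads fell on tags matching a further miRNA entry, and 10.7% and 7.34% on tags matching another kind of transcript. Tags made of a single repeated dinucleotide had 10 and 20 reads. No genome sequence was used here, so matches elsewhere in the genome were not tested.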

How the data were processed

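Small RNA of J1 cells was sequenced by the study from 2 libraries, DMSO and AICAR. The authors removed low-quality, contaminant and short reads, collapsed clean reads into tags, and deposited the count of reads, the length and the sequence of each tag, neither normalized nor aligned. Per the labels the authors' build was mm9, and the files hold no coordinates.

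From these counts, tags were matched without mismatch to the sense strand of GENCODE vM21 miRNA hairpins (GRCm38). On each arm the tag with the most reads was the reference, and tags starting within 2 nt and ending within 4 nt of it were counted, in full for each miRNA. RPM refers to clean reads. Thresholds were 1 RPM and a ratio of 2 or 0.5. Ratios carry 95% exact binomial (Clopper-Pearson) intervals. The depth was the sum of clean reads. Named miRNAs had at least 10 RPM, or at least 1 RPM and a ratio past the thresholds. Named hairpins were the 5 with most reads, the 5 with most unshared reads, and those outside Sfmbt2 with reads. Members and lists were chosen with earlier results of these data known. Clusters are chains of hairpins with gaps of at most 10 kb (miR-290) or 100 kb (Mir134).

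Matching and the ratio thresholds were tested on simulated reference tags, counted only when identical. The start and end limits of 2 and 4 nt were not tested in this way. Python 3.11.15, numpy 2.4.6, scipy 1.17.1, matplotlib 3.10.9, R 4.3.3 and edgeR 4.0.16 (TMM factors only) were used. Alternatives were other denominators, scalings, tag sets, end rules and filters. Restriction by genome matches was not run, since no genome was used here.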

Additional observations from a re-analysis of the deposited data

Results flagged for a closer look

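Signals in data outside the main counts were found among tags without a perfect hairpin match. Tags that matched a hairpin of the 4 families except for 1 or 2 added bases at the 3′ end had 1982 reads with DMSO (105.03 RPM) and 3098 with AICAR (146.886 RPM), a ratio of 1.40 (1.32 to 1.48), well above the limit of 3 reads. For miR-669c-5p such tags made up 2.89% of the arm with DMSO and 2.51% with AICAR, mostly with 1 added A (2.04% and 1.87%). For the other miRNAs of the families they made up 12.9% and 14.7%, most often with 1 added T (5.81% and 7.01%), and for miRNAs outside the families 10.3% and 11.1%. Whether the added bases occur in the genome at another site was not tested. On the reverse strand of the hairpins, tags without a sense match had 1 read with DMSO and 8 reads with AICAR, which is above the limit of 3 reads in the AICAR library only.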

How the results depend on the processing

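No paired analysis was possible because each condition had 1 library. The ratio of the families together (1.46) was above 1 under 14 of 15 alternatives: 1.08 relative to hairpin reads, 1.31 with TMM scaling, 1.37 with median-ratio scaling, and, chosen after seeing the data, 1.29 without Mir669c tags and 1.49 with tags on no other transcript. Without Mir669c and relative to hairpin reads it was 0.947. The hairpins in Sfmbt2 gave the same values. The alternatives with every symbol of the prefixes, and without tags also on a Mir hairpin outside the families, counted the same tags. They could not differ from 1.46. The 6 of 36 miRNAs past 2-fold became 0 relative to hairpin reads, 3 with TMM scaling, 1 of 20 with single-hairpin tags, 2 of 13 at 10 RPM, 10 of 57 without a filter and 3 of 22 with tags on no other transcript. The 1 miRNA at or below 0.5 became 3, 2, 0, 0, 3 and 0 under these, and 2 of 28 with identical tags only. Of the 2 past 2-fold at 10 RPM, miR-669a/miR-669p-5p reached that level in the AICAR library only (4.56 and 10.7 RPM). The arm pairs (12 of 15) became 2 of 2 with single-hairpin tags, 2 of 3 at 10 RPM, 23 of 33 without a filter and 4 of 4 with tags on no other transcript. Directions that turned were, relative to hairpin reads, the miR-297 (0.973), miR-466 (0.810) and, without Mir669c, miR-669 (0.858) families, miR-467a/miR-467d-3p (0.984), miR-297a/miR-297b/miR-297c-3p (0.939) and miR-466b/miR-466c/miR-466/miR-466e/miR-466p-3p (0.924), with TMM the miR-466 family (0.983), and with tags on no other transcript miR-466f-2-3p (1.18, from 19 and 25 reads). Ratios whose interval already held 1 also crossed it: miR-669a/miR-669o-3p (0.785 relative to hairpin reads, 0.953 with TMM), miR-467d-5p (0.786 and 0.954) and miR-466d/miR-466h-3p (0.847 relative to hairpin reads). So did miR-466f-3-3p, with 1.04 from single-hairpin tags and 1.10 from tags on no other transcript. It also had 1.04 from tags of at least 21 nt, 1.004 from tags read in both libraries and 1.05 from identical tags only. The scalings counted the same reads and shifted every log2 ratio alike, by -0.44 relative to hairpin reads and -0.16 with TMM. The settings by tag counted fewer tags or reads, and the cause of their turns was not tested further. Of 166 alternative ratios of the 18 named miRNAs, 138 stayed inside the interval of the reported value. Leaving out Mir669c tags left the other named miRNAs unchanged, so those alternatives were inside by construction. Depth limits miRNAs of few reads: 3 reads are 0.159 RPM with DMSO and 0.142 RPM with AICAR. Restriction by genome matches was not run.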
